A study of Mus musculus with 6 samples.

Results

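Interferon-stimulated genes are the genes that cells switch on when an interferon binds its receptor, and 47 of them were followed here in type 2 conventional dendritic cells (cDC2s) of the mouse spleen. They were taken as listed gene symbols with at least 10 counts summed over the 6 libraries of the deposited table. All 47 listed symbols met this rule, out of 14535 gene rows in all, and the lowest summed count among them was 398, for Oasl1. The series holds 3 libraries from CD11c-Cre Irf4fl/fl mice, called IRF4-deficient below, and 3 from wild-type (WT) mice, all of strain C57BL/6. In the IRF4-deficient mice Cre recombinase, driven by the CD11c (Itgax) promoter, removes the floxed part of Irf4, a transcription factor gene, in CD11c-expressing cells. No library carries Cre or the floxed allele alone, so their effects and the loss of Irf4 cannot be told apart. The labels state neither age, sort gate nor whether each library is a mouse of its own, so the p-values rest on the spread among libraries, which may be technical in part.

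Type I interferons signal through the receptor chains Ifnar1 and Ifnar2 and the kinases Jak1 and Tyk2. These activate a complex that includes Stat2 and Irf9 and binds the interferon-stimulated response element (ISRE) in promoters of genes such as those of the Oas, Ifit and Mx families. Interferon-gamma signals through Ifngr1, Ifngr2, Jak1 and Jak2, and acts through gamma-activated sites (GAS) near genes such as Cxcl9 and the immunity-related GTPases. Irf4 belongs to the same protein family as Irf9. It can bind ISRE-like letters and, together with the ETS factor PU.1, composite ETS-IRF elements.

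The ISRE core was searched for in 300-base promoter windows from RefSeq (GRCm38.p6), which run from 250 bases before to 50 bases after an annotated start, and a window was found for 34 of the 47 genes. The core was spelled GAAANNGAAA, or TTTCNNTTTC on the other strand, and was present for 17 of these 34 genes, against 3.99% of all 27025 genes with a window. The stretches below show the core in capitals in genes that fell (Isg15, Ifit1, Ifit3, Ddx60, Oas1a, Oas1g, Irgm1, Igtp), in the one that rose (Oas3) and in 3 that did not pass the test (Irgm2, Cxcl10, Rsad2). They are a selection, so the number of cores cannot be compared between outcomes from them. Oas1c and Bst2, which were not called, held 2 cores each before the start site and are not printed. Stat2, which fell, held 1 and is not printed either. Only bases before the RefSeq start site are printed, 5′ to 3′ on the strand of the gene. Start sites differ between annotations. For 31 of the 39 windows of members, the bases after the start were found in a GENCODE transcript of the gene. The stretches of Irgm1 and Irgm2 lie inside the GENCODE bounds of these genes.
Isg15: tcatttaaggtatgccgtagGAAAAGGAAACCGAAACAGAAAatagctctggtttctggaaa
Ifit1: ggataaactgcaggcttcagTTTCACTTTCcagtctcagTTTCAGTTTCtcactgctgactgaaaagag
Ifit3: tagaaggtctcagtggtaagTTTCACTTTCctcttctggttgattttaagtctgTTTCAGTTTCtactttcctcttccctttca
Ddx60: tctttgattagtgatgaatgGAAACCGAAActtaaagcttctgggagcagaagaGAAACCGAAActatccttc
Oas1a: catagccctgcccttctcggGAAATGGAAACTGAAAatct
Oas1g: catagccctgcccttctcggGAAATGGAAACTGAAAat
Irgm1: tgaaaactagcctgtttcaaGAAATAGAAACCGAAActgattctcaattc
Igtp: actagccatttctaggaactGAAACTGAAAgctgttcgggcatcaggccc
Irgm2: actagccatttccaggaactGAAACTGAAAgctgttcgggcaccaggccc
Oas3: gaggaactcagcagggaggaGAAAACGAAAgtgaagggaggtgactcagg
Cxcl10: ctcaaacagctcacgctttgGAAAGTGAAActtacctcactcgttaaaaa
Rsad2: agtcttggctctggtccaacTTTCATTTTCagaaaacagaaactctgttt
The stretch of Isg15 is chr4:156200855-156200916 (minus strand), that of Ifit1 chr19:34640765-34640833 (plus), that of Ifit3 chr19:34583353-34583436 (plus) and that of Ddx60 chr8:61928014-61928086 (plus). Those of Oas1a, Oas1g, Oas3 and Cxcl10 are chr5:120907526-120907565, chr5:120887614-120887651, chr5:120777705-120777754 and chr5:92349073-92349122, all on the minus strand. Those of Irgm1, Igtp, Irgm2 and Rsad2 are chr11:48871421-48871470 (minus), chr11:58199502-58199551 (plus), chr11:58214893-58214942 (plus) and chr12:26456543-26456592 (minus).

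Overlapping cores form a triple GAAA repeat (GAAANNGAAANNGAAA or its reverse) in Isg15, Oas1a, Oas1g and Irgm1 of the stretches shown, and also in Oas1c and Bst2, which were not called. It was present for 6 of the 34 genes (17.6%), against 0.13% of all genes. Among genes that fell, 10 of the 19 with a window held the ISRE core, and among those not called 6 of 14 did. The triple repeat was present for 4 of these 19 and for 2 of these 14. The GAS letters TTCNNNGAA, which read the same on both strands, were present for 8 of the 34 genes (23.5%), against 9.55% of all genes, and the ETS-IRF letters GGAANNGAAA (or TTTCNNTTCC) also for 8 (23.5%), against 3.16%. By class, the ISRE core was present for 6 of 9 type I-dominated genes (Oas, Ifit, Mx) with a window. It was present for 3 of 5 interferon-gamma-dominated ones (immunity-related GTPases, Cxcl9). The GAS letters were present for 2 of 9 and 2 of 5, and the ETS-IRF letters for 0 of 9 and 2 of 5. These 2, Igtp and Irgm2, held all 3 motifs in 1 overlapping run, and their printed stretches differ at 2 of 50 bases. The classes are too small to compare on these counts. A match is only a run of letters and was not tested for binding.

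Of the 47 genes, 29 were called lower and 1 higher in IRF4-deficient cells at an edgeR adjusted p under 0.05, and 17 were not called. Over all 11934 tested genes 20.4% were called in either direction, 10.5% lower and 9.87% higher. These shares also stand beside the counts for smaller groups below. The calls made up 61.7% of the members lower and 2.13% higher. The median log2 fold change was -0.63 over the members and 0.0025 over all tested genes. At least 2-fold lower were 13 members, against 3.57% of all tested genes, and none was called at least 2-fold higher, against 3.81%. Levels of the 2 genotypes did not overlap for 30 members that were lower and 3 that were higher, against 18.1% and 17.5% of tested genes. All 47 passed edgeR's filter on low counts. The members were listed with earlier results of these data known, so the counts describe them and test nothing about the list.

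**Figure D1:**
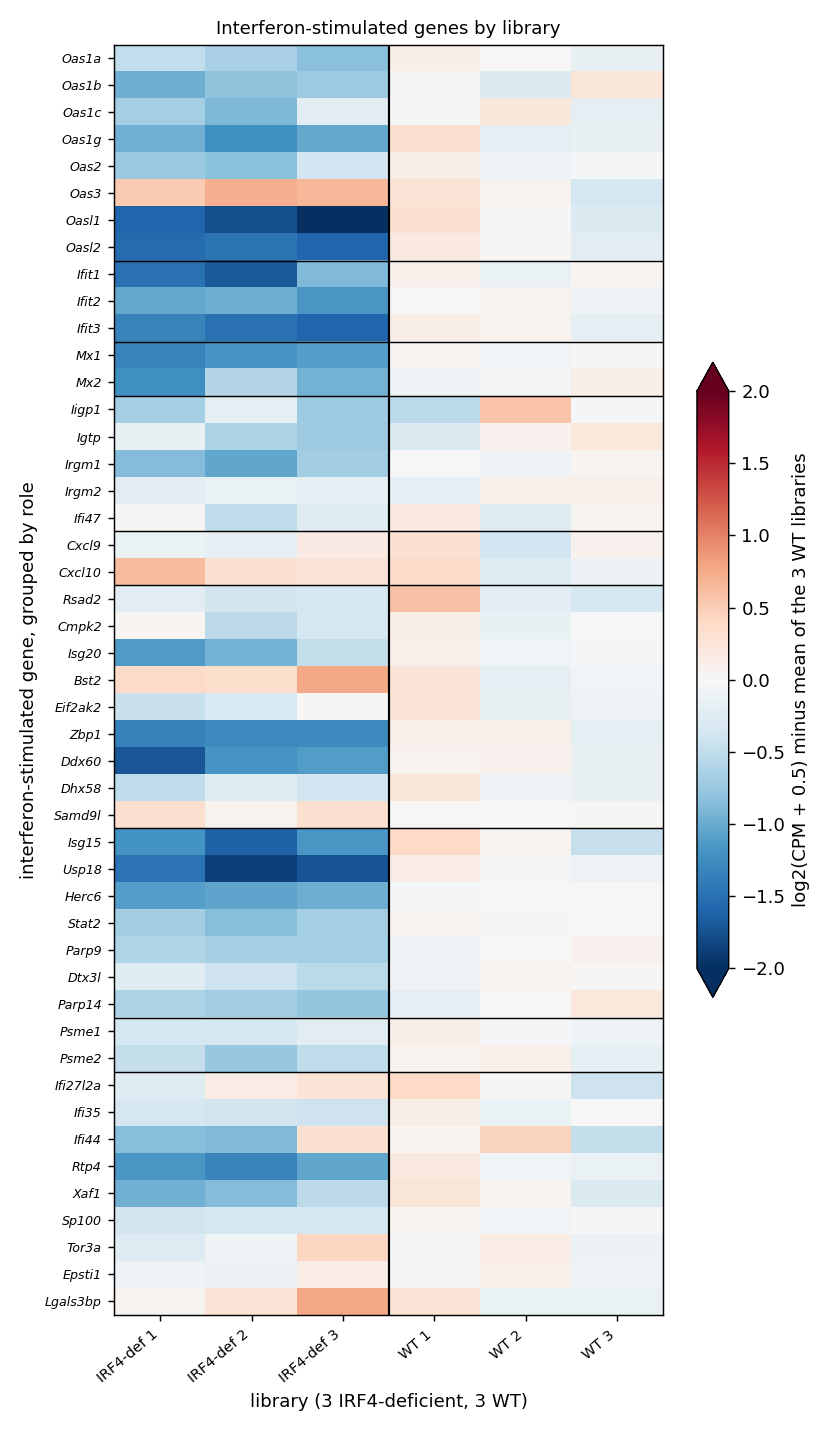
Each row is 1 of the 47 genes, each column 1 library, and the colour is log2(CPM + 0.5) minus the mean of the 3 WT libraries (blue lower, red higher, and darkest at a difference of 2 or more). Most rows are blue in all 3 IRF4-deficient columns, and lines separate groups of related function. Oas3, Cxcl10, Bst2, Samd9l and Lgals3bp lie above 0 in all 3, some only slightly, and of these Oas3 alone was called higher.

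Levels are given as CPM, counts divided by TMM-adjusted library size, and a log2 fold change is IRF4-deficient over WT with its standard error (SE). Library totals ran from 7421605 to 11459920 counts. Irf4 stood at 90.8, 65.3 and 84.0 CPM in IRF4-deficient libraries, against 291.8, 295.8 and 345.0 CPM in WT libraries, so every library matched its label. The 11 cDC2 markers summed to 10271 to 10766 CPM in IRF4-deficient libraries, against 10103 to 10836 CPM in WT libraries, but single markers moved both ways (5 called lower, 2 higher). Itgam rose 3.03-fold and Itgax 1.22-fold, while Cd4 fell 4.23-fold, Cd209a 2.48-fold, Zbtb46 1.92-fold, Flt3 1.65-fold and H2-Ab1 1.19-fold. Summed markers of some other cells were higher in IRF4-deficient libraries. The 12 of red pulp macrophages summed to 1652 to 3158 CPM in IRF4-deficient libraries, against 990.1 to 1311 CPM in WT libraries (7 called higher, 0 lower), and the 10 of monocytes to 2218 to 2882 CPM in IRF4-deficient libraries, against 852.9 to 1229 CPM in WT libraries (6 higher, 0 lower). The 8 of cDC1s summed to 307.3 to 416.6 CPM in IRF4-deficient libraries, against 240.7 to 250.8 CPM in WT libraries (5 higher, 1 lower), and the 9 of plasmacytoid dendritic cells in the table to 645.9 to 737.8 CPM in IRF4-deficient libraries, against 456.7 to 537.1 CPM in WT libraries (3 higher, 1 lower). Markers at 0 in a library occurred among the plasmacytoid (Klk1, in IRF4-deficient replicates 2 and 3), neutrophil, T cell and NK cell lists. In bulk RNA fewer cells of a type and less RNA per cell cannot be told apart, and the part of these cells in the results below was not tested.

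The Oas genes encode oligoadenylate synthetases, which sense double-stranded RNA and activate RNase L, and some relatives without that activity. Of the 8 members, 6 were called lower and 1 higher. Oasl2, the most changed of the abundant ones, had 103.8, 110.5 and 100.3 CPM in IRF4-deficient libraries, against 346.6, 308.6 and 261.7 CPM in WT libraries. The groups lay far apart, with a 2.91-fold lower level (log2 fold change -1.54, SE 0.10, adjusted p = 3.29e-09). Oasl1, its neighbour on chromosome 5 and known in mice as a restraint on Irf7 translation, was at 3.68, 3.21 and 2.56 CPM in IRF4-deficient libraries, against 14.9, 11.7 and 9.83 CPM in WT libraries. It fell 3.83-fold, the largest fold among the 47 genes, at a low level (log2 fold change -1.94, SE 0.31, adjusted p = 0.000114).

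Oas3 was the member that rose. It had 138.7, 158.7 and 153.4 CPM in IRF4-deficient libraries, against 116.7, 101.4 and 75.1 CPM in WT libraries, so every IRF4-deficient library was above every WT library. The level was 1.54-fold higher (log2 fold change 0.62, SE 0.13, adjusted p = 0.00236), and Oas3 was called in each of the 12 other fits. Oas2, the next annotated family member on the same strand of chromosome 5 (120730333 to 120749853, against 120753098 to 120777661 for Oas3), went the opposite way. It had 134.3, 127.2 and 172.4 CPM in IRF4-deficient libraries, against 245.2, 208.4 and 219.6 CPM in WT libraries (log2 fold change -0.63, SE 0.11, adjusted p = 0.000417).

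Further along the same cluster lie the Oas1 genes. Oas1a had 32.3, 28.9 and 25.2 CPM in IRF4-deficient libraries, against 50.1, 46.0 and 41.0 CPM in WT libraries, and fell without overlap (log2 fold change -0.66, SE 0.15). Oas1b had 13.4, 15.2 and 15.9 CPM in IRF4-deficient libraries, against 27.2, 22.2 and 31.8 CPM in WT libraries, and fell as well (log2 fold change -0.86, SE 0.19). Both changes were smaller than that of Oasl2 in fitted size. Oas1g stood at 5.15, 4.20 and 4.90 CPM in IRF4-deficient libraries, against 13.3, 9.27 and 9.42 CPM in WT libraries. It was called lower (log2 fold change -1.16, SE 0.29, adjusted p = 0.00726), but not without WT replicate 1 (adjusted p = 0.0545). Oas1c was not called, at 9.43 ± 2.43 CPM in IRF4-deficient cells, against 14.4 ± 2.18 CPM in WT cells (SD, n = 3 each, as for later means, log2 fold change -0.61, SE 0.25, adjusted p = 0.0909), but was lower without IRF4-deficient replicate 3 (0.0281). Oas1a and Oas1g are close copies, identical over the 38 promoter bases that their printed stretches share. Of the 50-base stretches of their annotated transcripts, 57.6% and 45.7% also occur in a transcript of another gene, so their separate counts are uncertain.

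The Ifit genes encode proteins that bind viral RNA, and all 3 fell at least 2-fold. Ifit1, which recognises RNA caps, was at 18.5, 16.3 and 28.5 CPM in IRF4-deficient libraries, against 57.3, 48.3 and 54.4 CPM in WT libraries. The highest IRF4-deficient library, replicate 3, was still well below the lowest WT library (log2 fold change -1.33, SE 0.18, adjusted p = 3.28e-05). Ifit2 had 47.3, 48.8 and 43.0 CPM in IRF4-deficient libraries, against 96.3, 101.5 and 92.3 CPM in WT libraries, a 2.09-fold lower level with little spread in either genotype (adjusted p = 1.68e-06). Ifit3 stood at 22.9, 20.6 and 19.4 CPM in IRF4-deficient libraries, against 64.6, 61.7 and 51.2 CPM in WT libraries (log2 fold change -1.49, SE 0.15). For Ifit3, 51.2% of transcript stretches recur in another gene, mainly its copy Ifit3b.

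Mx1 and Mx2 encode dynamin-like antiviral GTPases. Mx1 had 38.0, 42.5 and 44.5 CPM in IRF4-deficient libraries, against 99.2, 92.9 and 97.7 CPM in WT libraries. That is a 2.32-fold lower level with tight replicates (log2 fold change -1.21, SE 0.12, adjusted p = 3.98e-07). Mx2 had 7.45, 11.9 and 9.13 CPM in IRF4-deficient libraries, against 16.9, 17.6 and 19.8 CPM in WT libraries, and also fell (log2 fold change -0.94, SE 0.23, adjusted p = 0.00606).

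**Figure D2:**
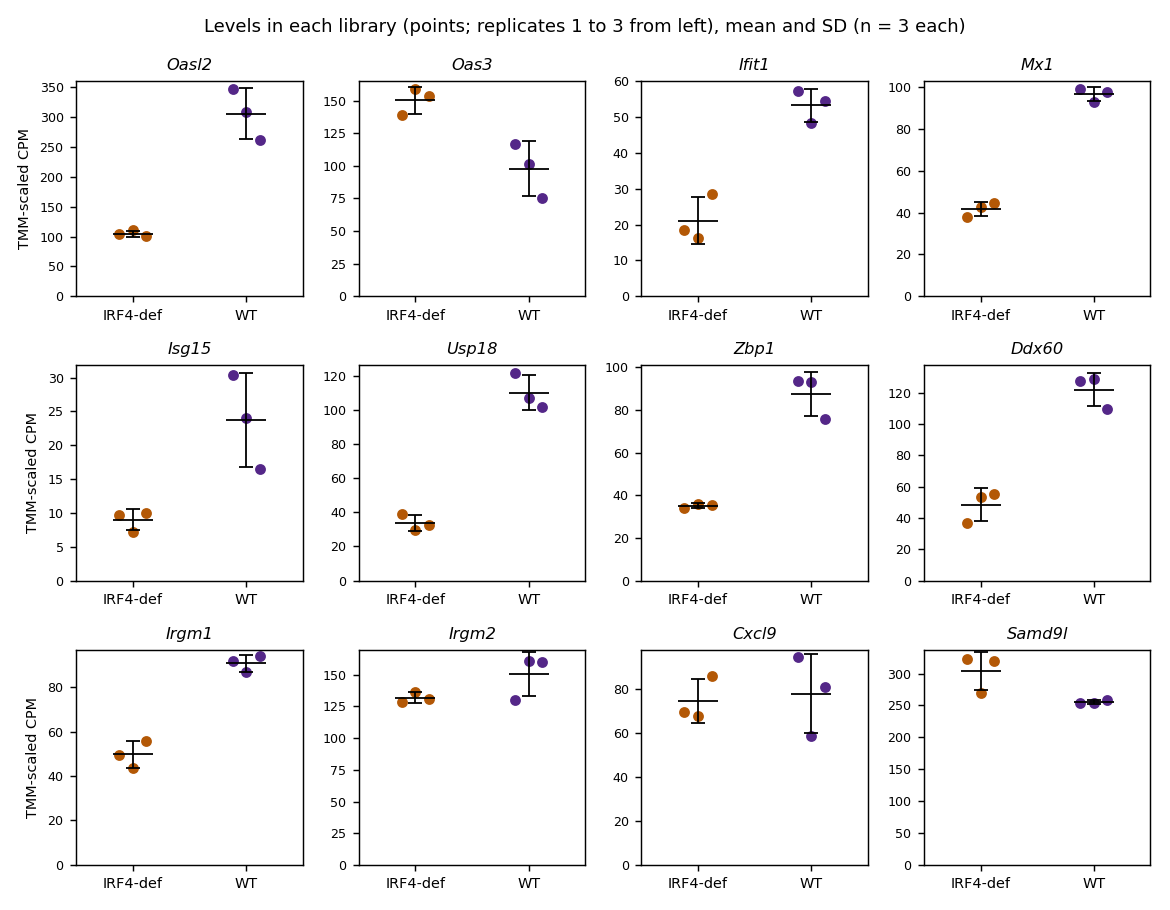
Each panel shows 1 gene, with points for the 3 IRF4-deficient and the 3 WT libraries in TMM-scaled CPM and a line and bars for the mean and SD. IRF4-deficient points lie below all WT points for Oasl2, Ifit1, Mx1, Isg15, Usp18, Zbp1, Ddx60 and Irgm1, and above them for Oas3 and Samd9l. The groups overlap for Irgm2 (through WT replicate 1) and Cxcl9.

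The immunity-related GTPases guard against vacuolar pathogens. Irgm1, Irgm2 and Igtp are known as regulators that protect the cell's own membranes, and Iigp1 and Ifi47 belong to the effector branch that coats the vacuole. Of these 5, 2 were called lower. Irgm1 had 49.7, 43.9 and 56.0 CPM in IRF4-deficient libraries, against 91.7, 86.7 and 94.0 CPM in WT libraries. It was 1.82-fold lower with no overlap between genotypes (log2 fold change -0.86, SE 0.12, adjusted p = 3.67e-05).

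Igtp was at 52.8, 37.8 and 35.3 CPM in IRF4-deficient libraries, against 47.9, 62.5 and 67.9 CPM in WT libraries. The groups overlapped, since IRF4-deficient replicate 1 was above WT replicate 1. Its call (log2 fold change -0.50, SE 0.17, adjusted p = 0.0423) was lost when replicate 2 or 3 of either genotype was left out (adjusted p = 0.143 and 0.129 for the IRF4-deficient, 0.137 and 0.179 for the WT libraries). Irgm2, which overlaps Igtp on chromosome 11 (58199618 to 58222782, against 58199556 to 58207591 for Igtp), was not called. It had 128, 136 and 131 CPM in IRF4-deficient libraries, against 130.4, 161 and 160.2 CPM in WT libraries, with WT replicate 1 inside the IRF4-deficient range (log2 fold change -0.19, SE 0.10, adjusted p = 0.217). Their printed promoter stretches differ at 2 of 50 bases, outside the ISRE core. Because 8.0% of Igtp and 4.4% of Irgm2 exonic bases are annotated to both, some of their reads may be shared or left uncounted.

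The remaining GTPases were not called. Ifi47 stood at 90.1, 62.2 and 74.8 CPM in IRF4-deficient libraries, against 101.4, 74.4 and 92.6 CPM in WT libraries (log2 fold change -0.23, SE 0.14, adjusted p = 0.29). Iigp1 was low in all libraries, at 5.46 to 8.16 CPM in IRF4-deficient cells, against 6.22 to 14.1 CPM in WT cells (log2 fold change -0.64, SE 0.32, adjusted p = 0.183).

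Cxcl9 and Cxcl10 encode chemokines that attract Cxcr3-bearing T cells and NK cells, Cxcl9 chiefly under interferon-gamma and Cxcl10 under either interferon. Cxcl9 had 69.8, 68.1 and 86.3 CPM in IRF4-deficient libraries, against 94.6, 58.6 and 81.1 CPM in WT libraries. The 2 ranges overlapped throughout (log2 fold change -0.06, SE 0.16, adjusted p = 0.839). Cxcl10 had 34.97, 27.9 and 26.9 CPM in IRF4-deficient libraries, against 29.0, 18.7 and 20.5 CPM in WT libraries. It was not called (log2 fold change 0.41, SE 0.19, adjusted p = 0.151), but was higher without WT replicate 1, its highest WT library (0.0431).

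Set side by side, the 13 type I-dominated members (Oas, Ifit, Mx) had 11 called lower and 1 higher, and their median log2 fold change was -1.06. The 6 interferon-gamma-dominated members (immunity-related GTPases and Cxcl9) had 2 called lower and 0 higher, with a median of -0.37 and 1 gene whose genotypes did not overlap. Over all tested genes 10.5% were called lower and 9.87% higher, and 18.1% were lower without overlap. In IRF4-deficient libraries 1 to 3 the median gene of the type I-dominated class lay at -1.02, -0.98 and -0.95 relative to its WT mean on the log2(CPM + 0.5) scale, against 0.13, -0.03 and -0.15 in WT libraries. For the interferon-gamma-dominated class these values were -0.19, -0.35 and -0.47 in IRF4-deficient libraries, against -0.09, 0.01 and 0.07 in WT libraries. In each class the IRF4-deficient medians were below all WT medians, and in each IRF4-deficient library the type I-dominated median was the lower of the 2. The difference between the classes was not tested. The interferon-gamma-dominated count rests on few genes, since 1 of its 2 calls, Igtp, was lost when any 1 of the 4 libraries named above was left out.

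**Figure D3:**
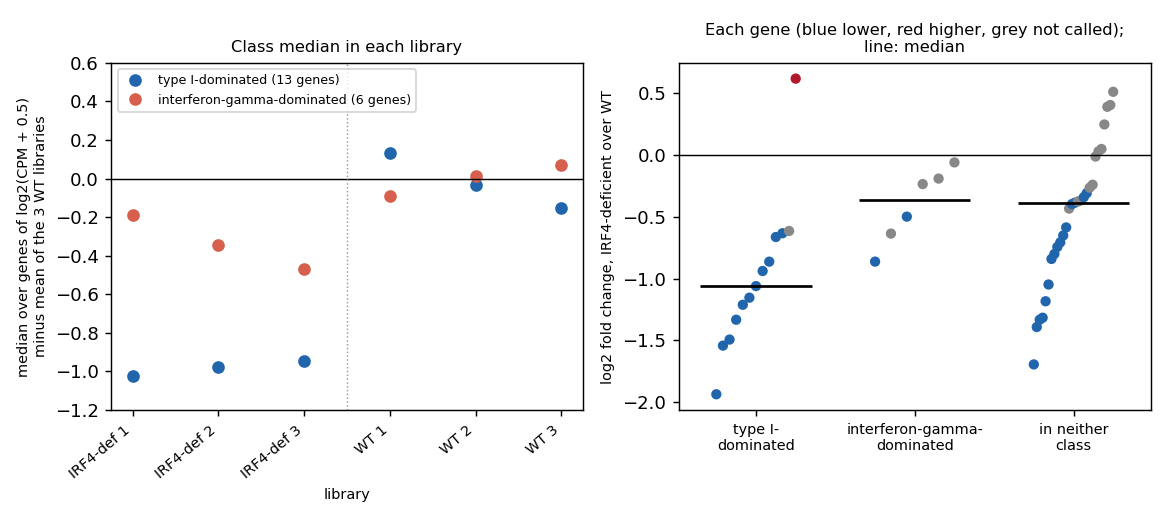
The left panel gives, for each library, the median over the 13 type I-dominated and the 6 interferon-gamma-dominated genes of log2(CPM + 0.5) minus the WT mean, and the right panel the log2 fold change of every gene with a line at the class median. Type I-dominated medians sit near -1 in the 3 IRF4-deficient libraries, and the single red point of that class is Oas3.

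The members grouped here as ISG15 system and signalling were Isg15, Usp18, Herc6, Stat2, Parp9, Dtx3l and Parp14, and all 7 were called lower. Other genes of interferon signalling, given further below, moved both ways. Isg15, a ubiquitin-like protein joined to other proteins, had 9.76, 7.17 and 10.02 CPM in IRF4-deficient libraries, against 30.4, 24.1 and 16.5 CPM in WT libraries. The WT libraries were spread widely, but none reached the IRF4-deficient range (log2 fold change -1.39, SE 0.24, adjusted p = 0.000303). Usp18, which removes Isg15 from proteins and restrains the type I interferon receptor, was at 39.1, 29.7 and 32.8 CPM in IRF4-deficient libraries, against 121.6, 106.8 and 101.9 CPM in WT libraries. It was 3.24-fold lower (log2 fold change -1.70, SE 0.13, adjusted p = 2.05e-08). Herc6, the main Isg15 ligase of mice, had 97.6, 101.2 and 106.8 CPM in IRF4-deficient libraries, against 207.9, 211.8 and 212.1 CPM in WT libraries, and so fell 2.07-fold with very close replicates.

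Stat2, the subunit that ties the type I complex to transcription, fell 1.67-fold and averaged 210.1 ± 13.4 CPM in IRF4-deficient cells, against 352.0 ± 9.73 CPM in WT cells (adjusted p = 2.64e-06). Parp9 and Dtx3l, an ADP-ribosyltransferase and a ubiquitin ligase that work as a complex, both fell (log2 fold change -0.65 with an SE of 0.10 for Parp9, and -0.40 with an SE of 0.09 for Dtx3l). They are divergent neighbours on chromosome 16 whose exons overlap by 9.4% of Parp9 and 8.0% of Dtx3l on opposite strands. Some reads may be shared or left uncounted. Parp14, a related enzyme, had 332.5, 318.0 and 299.4 CPM in IRF4-deficient libraries, against 446.1, 513.3 and 591.4 CPM in WT libraries (log2 fold change -0.71, SE 0.10).

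Of 9 other antiviral effectors and sensors 4 were called lower and 0 higher. Zbp1, a sensor of Z-form nucleic acid that can trigger necroptosis, was at 33.96, 35.8 and 35.6 CPM in IRF4-deficient libraries, against 93.6, 93.2 and 75.7 CPM in WT libraries (log2 fold change -1.32, SE 0.13, adjusted p = 3.64e-07). Ddx60, an RNA helicase linked to RIG-I signalling, had 36.7, 53.4 and 55.6 CPM in IRF4-deficient libraries, against 127.7, 128.6 and 109.7 CPM in WT libraries, a 2.52-fold lower level. The exonuclease gene Isg20 fell 1.79-fold (adjusted p = 0.00145). Dhx58, which encodes the RNA sensor LGP2, was called at the margin (log2 fold change -0.39, SE 0.13, adjusted p = 0.0453). It missed the threshold with DESeq2 (0.0512) and without IRF4-deficient replicates 1 or 3 (0.158 and 0.0676) or WT replicates 1 or 2 (0.245 and 0.0638).

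The other 5 of this group were not called. Rsad2, the viperin gene, was at 37.7, 34.1 and 34.4 CPM in IRF4-deficient libraries, against 66.1, 37.5 and 34.1 CPM in WT libraries, where replicate 1 stood alone above the rest (log2 fold change -0.37, SE 0.21, adjusted p = 0.248). Its divergent neighbour on chromosome 12, the mitochondrial nucleotide kinase gene Cmpk2, averaged 11.2 ± 2.45 CPM in IRF4-deficient cells, against 13.6 ± 1.38 CPM in WT cells. Eif2ak2, the kinase PKR that halts translation, had 102, 113 and 142 CPM in IRF4-deficient libraries, against 166, 126 and 129 CPM in WT libraries. It was lower only without IRF4-deficient replicate 3 (adjusted p = 0.033, against 0.23 with all libraries).

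Samd9l, a growth-restricting antiviral factor, had 322.2, 268.9 and 319.6 CPM in IRF4-deficient libraries, against 253.6, 254.5 and 259.0 CPM in WT libraries. All IRF4-deficient values were above the WT values, but the difference was small (log2 fold change 0.25, SE 0.09) and passed only without IRF4-deficient replicate 2 among the fits made (adjusted p = 0.0186, against 0.0565 with all libraries). Bst2, which encodes tetherin and is also a marker of plasmacytoid dendritic cells, had 24.2, 23.7 and 31.5 CPM in IRF4-deficient libraries, against 22.1, 16.0 and 17.8 CPM in WT libraries. Its groups did not overlap (log2 fold change 0.51, SE 0.19, adjusted p = 0.0667, and 0.0444 without WT replicate 1). Of the 8 other plasmacytoid markers that could be tested, Siglech, Cox6a2 and Runx2 were called higher (log2 fold changes 1.28, 3.04 and 1.03), Ccr9 was called lower (-0.73), and Tcf4, Spib, Ly6d and Pacsin1 were not called. The summed markers are given above, and their part in the Bst2 level was not tested.

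Psme1 and Psme2 encode the proteasome activator that interferon-gamma induces for antigen processing. Psme2 averaged 47.2 ± 4.94 CPM in IRF4-deficient cells, against 70.9 ± 7.23 CPM in WT cells (log2 fold change -0.59, SE 0.13, adjusted p = 0.00292), with 28.3% of its transcript stretches shared mainly with the copy Psme2b. Psme1 had 296.6, 299.6 and 324.0 CPM in IRF4-deficient libraries, against 409.8, 373.6 and 356.1 CPM in WT libraries. The change was small (log2 fold change -0.31, SE 0.08, adjusted p = 0.0131) and the call was lost without IRF4-deficient replicates 1 or 2 (adjusted p = 0.0617 and 0.0619) or WT replicate 1 (0.066).

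In the last group 3 of 9 genes were called lower and 0 higher. Rtp4, a chaperone of membrane receptors that also restrains viral replication, had 45.6, 40.8 and 50.1 CPM in IRF4-deficient libraries, against 117.7, 99.4 and 93.6 CPM in WT libraries (log2 fold change -1.18, SE 0.13, adjusted p = 1.27e-06). Xaf1, a pro-apoptotic factor, fell 1.74-fold and Sp100, a component of PML nuclear bodies, 1.27-fold. Ifi35 had 36.7 ± 1.16 CPM in IRF4-deficient cells, against 47.8 ± 4.49 CPM in WT cells without overlap, at an adjusted p of 0.0585. Ifi44 was at 12.9, 12.6 and 29.2 CPM in IRF4-deficient libraries, against 24.2, 32.3 and 16.8 CPM in WT libraries. IRF4-deficient replicate 3 stood apart from the other two, and Ifi44 was lower without that library (log2 fold change -0.95, adjusted p = 0.011, against 0.439 with all libraries).

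Some abundant members of this group were not called. Epsti1 had 285, 280.2 and 336 CPM in IRF4-deficient libraries, against 299, 326 and 284 CPM in WT libraries, with a log2 fold change of -0.01 (SE 0.09). Ifi27l2a had 47.4, 62.3 and 68.0 CPM in IRF4-deficient libraries, against 74.3, 57.2 and 42.3 CPM in WT libraries, and its ranges overlapped. Tor3a, a torsin ATPase gene, had 43.2, 49.1 and 69.6 CPM in IRF4-deficient libraries, against 50.3, 57.7 and 47.8 CPM in WT libraries, and its ranges overlapped as well. Lgals3bp, a secreted glycoprotein gene, was at 156.6, 181.4 and 258.0 CPM in IRF4-deficient libraries, against 181.7, 136.5 and 136.6 CPM in WT libraries. It was not called (log2 fold change 0.39, SE 0.19, adjusted p = 0.194), but was higher without IRF4-deficient replicate 1 (0.0328). The summed red pulp macrophage markers were 1652, 2392 and 3158 CPM in the same IRF4-deficient libraries and 1131, 1311 and 990.1 CPM in WT libraries, and their part in the Lgals3bp level was not tested.

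**Figure D4:**
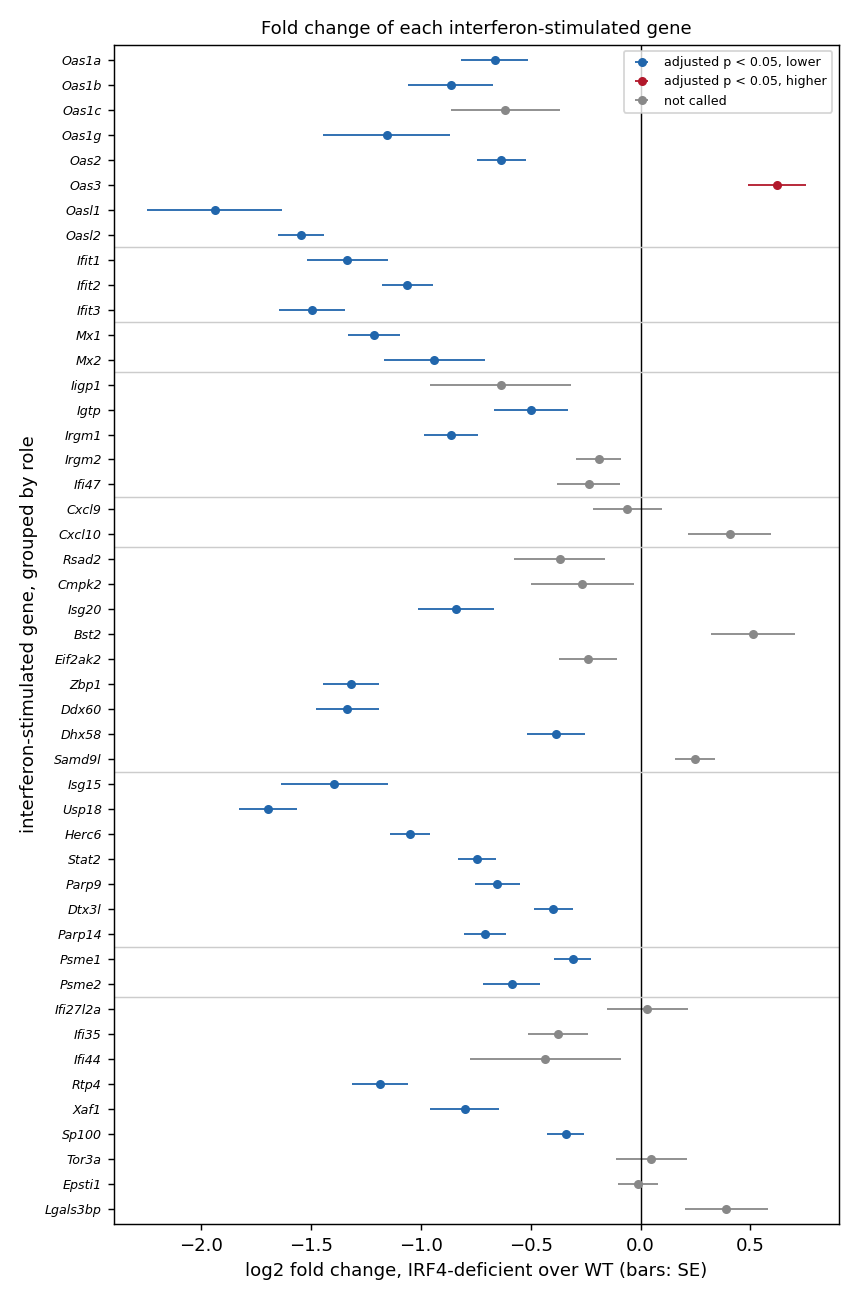
Points give the log2 fold change of IRF4-deficient over WT for each of the 47 genes, with bars of 1 SE, coloured by whether the adjusted p was under 0.05. The values span -1.94 for Oasl1 to 0.62 for Oas3, and 40 of the 47 lie below 0.

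Compared per kilobase of annotated exon sequence, levels spread widely between members. The most abundant in both genotypes were Psme1, with 138.9 CPM per kilobase in IRF4-deficient and 171.9 in WT cells, Epsti1, with 129.5 in IRF4-deficient and 130.5 in WT cells, and Ifi27l2a, with 127.9 in IRF4-deficient and 125.1 in WT cells. In IRF4-deficient cells the lowest was Iigp1 at 1.10 CPM per kilobase (1.69 in WT), followed by Oasl1 at 1.21 (4.67 in WT). On this per-length level Oas3, at 21.3 in IRF4-deficient and 13.8 in WT cells, was above Oasl2 in IRF4-deficient cells (16.5) and below it in WT cells (47.95).

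The interferon pathway around these genes was read from 34 other genes, of which 27 could be tested. Of these, 11 were called lower and 5 higher, against 10.5% lower and 9.87% higher over all tested genes. The list includes the targeted Irf4 among those called lower. Both type I receptor chains were lower. Ifnar2 had 145.4, 169.0 and 195.6 CPM in IRF4-deficient libraries, against 242.0, 253.6 and 231.5 CPM in WT libraries (log2 fold change -0.51, SE 0.10, adjusted p = 0.00128). Ifnar1 averaged 166.0 ± 18.3 CPM in IRF4-deficient cells, against 209.0 ± 8.66 CPM in WT cells (log2 fold change -0.33, SE 0.10, adjusted p = 0.0189), but was not called without IRF4-deficient replicate 1 or WT replicate 2 (adjusted p = 0.104 and 0.0907). The interferon-gamma receptor chain Ifngr1 rose, with 676.7, 728.9 and 728.9 CPM in IRF4-deficient libraries, against 584.2, 546.3 and 529.1 CPM in WT libraries (log2 fold change 0.36, SE 0.08, adjusted p = 0.00188). Its partner Ifngr2 was not called, at 128.3 ± 16.6 CPM in IRF4-deficient cells, against 141.9 ± 6.04 CPM in WT cells.

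Among the kinases, Tyk2, which serves the type I receptor, had 80.1, 119.5 and 98.2 CPM in IRF4-deficient libraries, against 158.3, 188.3 and 157.6 CPM in WT libraries. It fell 1.70-fold (log2 fold change -0.76, SE 0.13, adjusted p = 0.00031). Jak1, shared by both receptors, averaged 377.2 ± 16.7 CPM in IRF4-deficient cells, against 349.8 ± 5.07 CPM in WT cells, and was not called. Jak2, on the interferon-gamma side, averaged 906.4 ± 79.9 CPM in IRF4-deficient cells, against 1050 ± 125 CPM in WT cells, and was called lower only without WT replicate 1 among the fits made (adjusted p = 0.0162, against 0.115 with all libraries).

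Irf9, the DNA-binding subunit of the type I complex, averaged 155.6 ± 14.6 CPM in IRF4-deficient cells, against 192.7 ± 8.97 CPM in WT cells (log2 fold change -0.31, SE 0.10, adjusted p = 0.0288). This call did not hold without IRF4-deficient replicate 2 (adjusted p = 0.151) or WT replicates 1, 2 or 3 (0.103, 0.0706 and 0.0524). Irf1 (log2 fold change -0.56, SE 0.14, adjusted p = 0.00878) and Irf5 (-0.47, SE 0.10, adjusted p = 0.00251) were also lower. Nlrc5, a class I antigen presentation activator, fell 2.11-fold (log2 fold change -1.08, SE 0.12, adjusted p = 3.38e-06). Each of these 3 calls held in all 12 other fits. Stat3 (log2 fold change 0.42, SE 0.08) and Irf8 (1.42, SE 0.14) were higher. Irf7, which amplifies type I interferon production, was not called at 70.5 ± 6.58 CPM in IRF4-deficient cells, against 86.8 ± 16.2 CPM in WT cells, but was lower without WT replicate 3 (adjusted p = 0.0301, against 0.131 with all libraries).

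Of 7 inhibitors of the pathway 2 were lower and 2 higher, against 10.5% and 9.87% of all tested genes. The phosphatase gene Ptpn2, which restrains cytokine signalling, had 89.9, 66.6 and 79.5 CPM in IRF4-deficient libraries, against 116.0, 122.0 and 149.97 CPM in WT libraries (log2 fold change -0.71, SE 0.13). Pias1, a SUMO ligase gene, was lower at the margin (adjusted p = 0.0303) and was lost with IRF4-deficient replicate 1, IRF4-deficient replicate 2, WT replicate 2 or WT replicate 3 left out (0.0798, 0.102, 0.222 and 0.0594). Ptpn1 rose by 0.52 (SE 0.11) and Ptpn6 by 0.34 (SE 0.07) on the log2 scale. Of the 7 interferon ligand genes listed, Ifng and Ifnk are in the table. Ifng was at 1.56, 0.371 and 0 CPM in IRF4-deficient libraries and 0, 0.0909 and 0 CPM in WT libraries, too low to test, and Ifnk averaged 2.55 ± 0.687 CPM in IRF4-deficient cells, against 4.44 ± 0.666 CPM in WT cells, and was not called (adjusted p = 0.204).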

How the data were processed

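Splenic cDC2 RNA was sequenced in 3 IRF4-deficient and 3 WT libraries. The authors deposited raw counts per gene symbol, made with STAR and HTSeq on mm10 per the submitters' processing notes, which also name DESeq2. The sources used here give no versions, annotation, strand setting or row filter. Whether reads of genes that overlap on opposite strands were told apart, or left out of the counts, is therefore not known. WT columns were tied to sample titles through the source names in the labels.

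Genes were kept with filterByExpr, which left 11934, scaled by TMM and tested with edgeR 4.0.16 (glmQLFit and glmQLFTest, robust, R 4.3.3). Calls needed a Benjamini-Hochberg adjusted p under 0.05 over all tested genes. The SE comes from the quasi-likelihood F statistic, and fold changes carry a prior count of 0.125. The script was tested on simulated data with known changes. Replicates differed beyond counting noise (chi-square per degree of freedom 7.66 to 15.9), so each library counts once. Alternatives were DESeq2 1.42.0, its size factors in edgeR, limma-voom (limma 3.58.1), other filters, a replicate block, left-out libraries and wider classes.

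Gene positions and exon lengths are from GENCODE M21 (GRCm38, the assembly of mm10), which held all 47 symbols, and promoters from RefSeq. Every member could be named. Values per library were given for calls of at least 2-fold, calls of a higher level, called class members and uncalled members of at least 50 CPM. Some members outside this rule (Cxcl10, Bst2, Rsad2, Ifi44, Psme1 and Parp14) are shown per library as well, chosen after their values were seen. The members, classes, pathway genes and markers were chosen with earlier results of these data known. One gene of the pathway list is counted there but not reported here by name.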

Additional observations from a re-analysis of the deposited data

How the results depend on the processing

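Over 12 alternative fits, 26 of the 30 called members remained called in every one, and no called member changed sign. Oas1g, Igtp, Dhx58 and Psme1 lost their call in at least 1 fit, and 7 members not called passed in 1 fit each (Oas1c, Eif2ak2, Ifi44, Cxcl10, Bst2, Samd9l and Lgals3bp). With libraries left out in turn, 26 to 30 members were called lower and 1 to 3 higher, and the members' median log2 fold change ran from -0.65 to -0.54. Over the same fits, 10 to 12 type I-dominated and 1 to 2 interferon-gamma-dominated members were called lower. Wider classes, with Rsad2, Isg15, Usp18, Cmpk2 and Ifi44 added to the type I-dominated and Psme1, Psme2 and Cxcl10 to the interferon-gamma-dominated one, gave 13 of 18 and 4 of 9 called lower. Same-numbered replicates, by sample title, did not deviate together (correlations of -0.0058, 0.052 and -0.012 over genes). A pairing with little effect on levels would give the same values, so this does not settle whether libraries were paired. The deposited WT columns carry other numbers than the titles, and pairing by those was not checked. A replicate block by title number gave 27 members called lower and 1 higher, with 1 interferon-gamma-dominated member lower. Under it Dhx58 and Igtp, and the pathway gene Pias1, lost their calls (adjusted p = 0.0751, 0.0782 and 0.0532). The cause of this shift was not tested. Precision is limited by 3 libraries a group, and for Oasl1, Oas1g and Iigp1 also by totals of 398, 401 and 443 counts over the 6 libraries.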

Other observations

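Libraries of 1 genotype differed in which held the highest level of a member. Among WT libraries, replicate 1 was highest for 29 of the 47 genes, replicate 2 for 10 and replicate 3 for 8. Among IRF4-deficient libraries, replicate 3 was highest for 22, replicate 1 for 16 and replicate 2 for 9. The median deviation of the members from their group mean was 0.11 in WT replicate 1 and -0.09 in WT replicate 3 on the log2 scale, against -0.0054 and 0.0044 over all tested genes in these libraries.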
